A study of Mus musculus with 6 samples.

Results

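The SLCO and SLC22 genes encode membrane carriers that move organic ions across the plasma membrane. They were taken as every gene of the count table whose symbol begins with Slco and a digit, or reads Slc22a followed by a number alone, which gave 40 genes of 52323, with 15 in the SLCO family and 25 in the SLC22 family. Their expression was measured by bulk RNA-seq in damaged hepatocytes (dHeps), which had been isolated by liver perfusion from mice with chronic injury by carbon tetrachloride (CCl4), a hepatotoxin. All 3 groups carried the same alleles, labelled AAV-TBG-Cre:Rosa-LSL-tdTomato: a Cre recombinase under the liver-specific TBG promoter, delivered by adeno-associated virus, switches on the red protein tdTomato in hepatocytes. Mice of both sexes were used, and their ages were not given in the labels. Cells were cultured for 16 days in serum-free Hepatocyte Maintenance Medium with one of 3 treatments. The control received DMSO, the solvent. The 3C cocktail held 50 µM CID755673, a protein kinase D inhibitor, 2 µM GSK429286A, a ROCK inhibitor, and 5 µM ETC-1002, also known as bempedoic acid. The 5C cocktail held these compounds plus salidroside, a glucoside of Rhodiola, at 5 µM and forskolin, which activates adenylate cyclase, at 2 µM. Each group had 2 libraries, and the labels do not tie a library to an animal or a culture. The study's methods describe n as separate biological replicates without saying so of these libraries in particular, so p-values are read as measuring the spread between these libraries.

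SLCO genes encode the organic anion transporting polypeptides (OATPs), which exchange bile acids, bilirubin conjugates, thyroid hormones, prostaglandins and many drugs across membranes without using ATP directly. SLC22 genes encode organic cation transporters (OCTs), carnitine and zwitterion transporters (OCTNs) and organic anion transporters (OATs). In healthy liver, members of both families sit on the sinusoidal membrane of hepatocytes and bring compounds in from blood for metabolism and biliary excretion, while other members serve kidney, brain, testis or many tissues at once.

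The 250 bases before the start of the OATP genes Slco1a4 and Slco1b2 are shown because the levels of these members carry differences described below. The start is that of the Ensembl canonical transcript, which for both genes is also the annotated start of the gene. The bases come from GRCm39, read 5′ to 3′ on the strand of the gene, at chr6:141802037-141802286 (minus strand) and chr6:141574929-141575178 (plus strand). Capitals mark a match, on either strand, to any of 3 short words that were searched: GTTAAT (the half-site of HNF1 factors), AGGTCA (the half-site of many nuclear receptors) and TGACG (the half-site of the cAMP response element).
Slco1a4: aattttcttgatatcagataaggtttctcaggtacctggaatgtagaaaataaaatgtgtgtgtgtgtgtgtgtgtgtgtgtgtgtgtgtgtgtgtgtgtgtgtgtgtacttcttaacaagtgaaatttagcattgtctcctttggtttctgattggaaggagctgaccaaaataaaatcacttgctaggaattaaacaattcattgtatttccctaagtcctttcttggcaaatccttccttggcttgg
Slco1b2: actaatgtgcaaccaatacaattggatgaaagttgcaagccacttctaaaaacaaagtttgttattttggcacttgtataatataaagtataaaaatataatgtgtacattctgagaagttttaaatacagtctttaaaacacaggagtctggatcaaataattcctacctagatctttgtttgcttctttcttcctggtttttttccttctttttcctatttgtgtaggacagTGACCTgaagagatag
The Slco1b2 stretch held one nuclear receptor half-site, whose first base lay 16 bases before the start. The Slco1a4 stretch held none of these words. In the same window before the canonical start, which in some genes lies within the span of another transcript, 1 of the 22 members tested below had a GTTAAT match (Slco5a1), 3 had AGGTCA (Slc22a14, Slco1a1 and Slco1b2) and 3 had TGACG (Slc22a17, Slc22a3 and Slc22a5), beside 6.3%, 13.1% and 18% of all protein-coding promoters of this length. A match is a description of the letters and was not tested as a binding site.

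Of the 40 members, 22 passed the filter on low counts and entered the test, 9 of the SLCO and 13 of the SLC22 family. The other 18 stayed at or under 12 units of the deposited estimated counts in every library, a floor that stands for 3 fragments if a fragment counts as 4 units, which is an assumption. In counts scaled to the library total (CPM), the floor was 0.173 to 0.182, which is also the limit that a count of 0 allows. Among the 18, 9 were at 0 in all 6 libraries: the testis-type OATP genes Slco6b1 (annotated as a pseudogene), Slco6c1 and Slco6d1, the kidney organic anion transporter genes Slc22a6 and Slc22a8, and Slc22a16, Slc22a19, Slc22a20 and Slc22a22. Slc22a7, which encodes the hepatic organic anion transporter OAT2, reached 3 units in 1 library of 5C and was at 0 in the other 5. The remaining 8 (Slc22a13, Slc22a2, Slc22a26, Slc22a27, Slc22a29, Slco1a5, Slco1c1 and Slco4c1) had between 0 and 11 units in any library.

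A further 5 members were tested but had a mean of at most 40 units in every group, and are given as counts with no fold. Slco1a1, an OATP gene known from male mouse liver, had 12 and 3 units in DMSO, 15 and 16 in 3C, and 16 and 12 in 5C. Slc22a3, an organic cation transporter gene, was at 0 in DMSO and 3C and had 14 and 12 units in 5C. Its exons overlap those of Plg on the opposite strand, the plasminogen gene, whose mean level was 3.48 CPM in DMSO, 39.4 CPM in 3C and 157 CPM in 5C. Without a stated strand setting, reads of these 2 genes cannot be told apart where they overlap. Slc22a12, the urate transporter gene, had 4 and 13 units in DMSO, 38 and 0 in 3C, and 0 in both 5C libraries. Its exons overlap in the same way those of Nrxn2, whose mean level was 2.22 CPM in DMSO, 4.28 CPM in 3C and 8.37 CPM in 5C. Slc22a14 had 9 and 0 units in DMSO, 17 and 16 in 3C, and 11 and 41 in 5C. Slc22a28 was at 0 in DMSO and had 15 and 3 units in 3C and 22 and 0 in 5C. None of the 5 passed edgeR's test in any comparison, while the unadjusted p was 0.0282 and 0.0274 for Slc22a3 in 5C against DMSO and against 3C, and 0.0375 for Slc22a12 in 5C against 3C. In 5C against DMSO, edgeR called Slc22a3 with these groups fitted alone (adjusted p = 0.0378) and Slc22a14 without DMSO replicate 1 (adjusted p = 0.0471). Of the 22 tested members, 8 have exons that overlap a gene on the opposite strand: Slc22a3 and Slc22a12, and also Slco1a6, Slco2a1, Slco2b1, Slco3a1, Slc22a4 and Slc22a21. The levels of 16 further members in every library are plotted per gene, and they are described with folds.

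**Figure D1:**
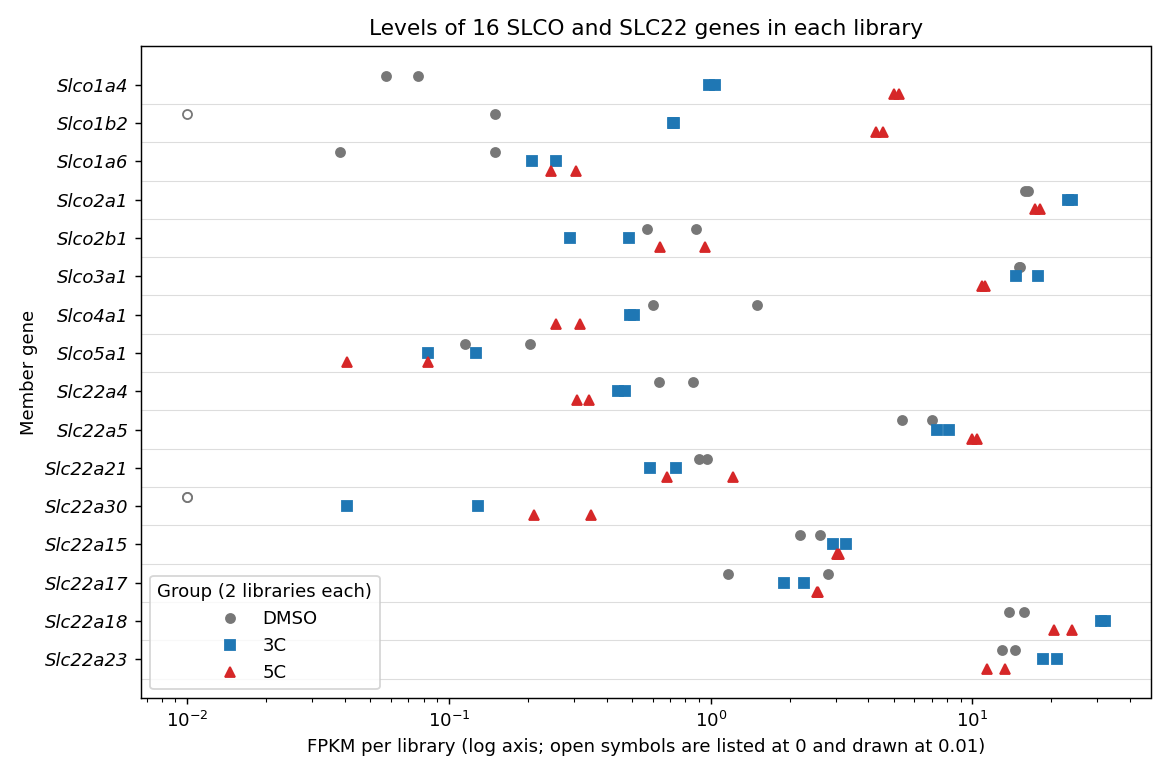
FPKM (fragments scaled to transcript length and library total, log axis) of 16 SLCO and SLC22 genes in each of the 6 libraries, with 2 symbols per group and gene (circles DMSO, squares 3C, triangles 5C); open symbols were listed at 0 and are drawn at 0.01. Slco1a4 and Slco1b2 step up from DMSO to 3C to 5C, while Slco2a1, Slco3a1, Slc22a18 and Slc22a23 lie above 10 FPKM in all 6 libraries.

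The 3 groups had total estimated counts of 65916573 to 69245895 per library. The labelled cell type was hepatocyte, and all 11 hepatocyte markers in the count table had a mean above 0 in each group. In DMSO, the means of Hpd (0.173 CPM) and Asgr1 (0.149 CPM, SD 0.211) were at or under the floor, so the size of their folds is uncertain. The summed level of the 11 was 1453 to 1668 CPM in DMSO, 9239 to 9701 in 3C and 8957 to 13373 in 5C. Alb made up most of that sum, with means of 1269, 7585 and 8583 CPM in the same order (SD 2569 in 5C). Each of the 11 was called higher in both cocktails against DMSO. Macrophage markers summed to 15343 to 16652 CPM in DMSO, 5203 to 5238 in 3C and 3494 to 3520 in 5C, and 15 of 16 were called lower in both cocktails. Stellate and fibroblast markers summed to 7758 to 9073 CPM in DMSO, 7077 to 7180 in 3C and 11556 to 12574 in 5C, most of it from Col1a1, Col1a2 and Col3a1. Of these 12 markers, 4 were called higher in 5C against DMSO with none lower, and 2 higher and 1 lower in 3C. Their median log2 fold change in 3C was 0.80, while the sum was lower than in DMSO. Endothelial markers summed to 1953 to 2423, 1009 to 1014 and 802.7 to 859.9 CPM in the same order, with 5 of 11 tested called higher and 3 lower in 5C against DMSO. Most of that sum came from Stab1, at 1716, 801.4 and 527 CPM, while Pecam1 rose from 0.788 CPM in DMSO to 5.94 in 3C and 31.9 in 5C, and Cdh5 from 1.16 to 10.7 and 57.8. Cholangiocyte markers summed to 2904 to 3387, 3531 to 3723 and 2396 to 2696 CPM, most of it from Spp1 (2990, 3240 and 2196 CPM). Of these 8 markers, 5 were called higher in 5C against DMSO and 6 in 3C, with none lower. Mesothelial markers summed to 850.4 to 1036, 1105 to 1233 and 1960 to 2018 CPM. Of these 6 markers, 4 were called higher in 5C against DMSO and 1 in 3C, with none lower. T and B cell markers were near 0, with at most 0.652 CPM in sum. In such bulk samples, fewer cells of a type and less RNA per cell cannot be told apart, and the part of these marker differences in the results below was not tested.

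A gene was called when its Benjamini-Hochberg adjusted p, over the 19135 genes tested with edgeR's quasi-likelihood F test, was under 0.05 and its absolute log2 fold change was above 1. With 5C against DMSO, 7 of the 22 tested members were called. The 5 that rose, among them Slco1a4, Slco1b2, Slco1a6 and Slc22a30, were 22.7% of the tested members (beside 7.3% of all genes tested), and Slc22a4 and Slco4a1 fell (9.09%, beside 4.42%). With 3C against DMSO, 5 members rose, among them Slco1a4, Slco1a6, Slc22a18 and Slc22a30 (22.7%, beside 5.83% of all genes) and none was called lower (beside 3.62%), also not on the unadjusted p or with DESeq2. With 5C against 3C, Slco1a4 alone was called, and it was higher in 5C (4.55%, beside 2.16% of all genes), with no call lower (beside 0.852%), 1 on the unadjusted p (Slc22a12) and 0 with DESeq2. The DMSO libraries served as controls for either cocktail, so the calls of the cocktails are not independent of each other.

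On the adjusted p alone, with no limit on the fold, 10 members passed in 5C against DMSO (45.5%, beside 28.7% of all genes), 8 in 3C against DMSO (36.4%, beside 24.5%) and 7 in 5C against 3C (31.8%, beside 12.7%). The median log2 fold change of the 22 tested members was 0.50 for 5C and 0.55 for 3C, each against DMSO, and 0.20 between the cocktails, and with genes at the floor set to their bounds it was 0.22, 0.36 and 0.11. Over all genes tested it was 0.00413, 0.00876 and -0.011. Members that passed the filter only through a cocktail group had to be higher there, so these shares and medians describe the members and support nothing. The count of calls in 5C against DMSO went from 7 to 4 without 3C replicate 2 or 5C replicate 2 and to 3 without 5C replicate 1. With at least 10 counts required in every library, 5 were called in that comparison, 2 higher and 3 lower (Slc22a4, Slco4a1 and Slco5a1), against 5 higher and 2 lower under the filter used here. In 3C against DMSO it went from 5 to 3 without 3C replicate 1, and in 5C against 3C from 1 to 2 without either DMSO library.

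**Figure D2:**
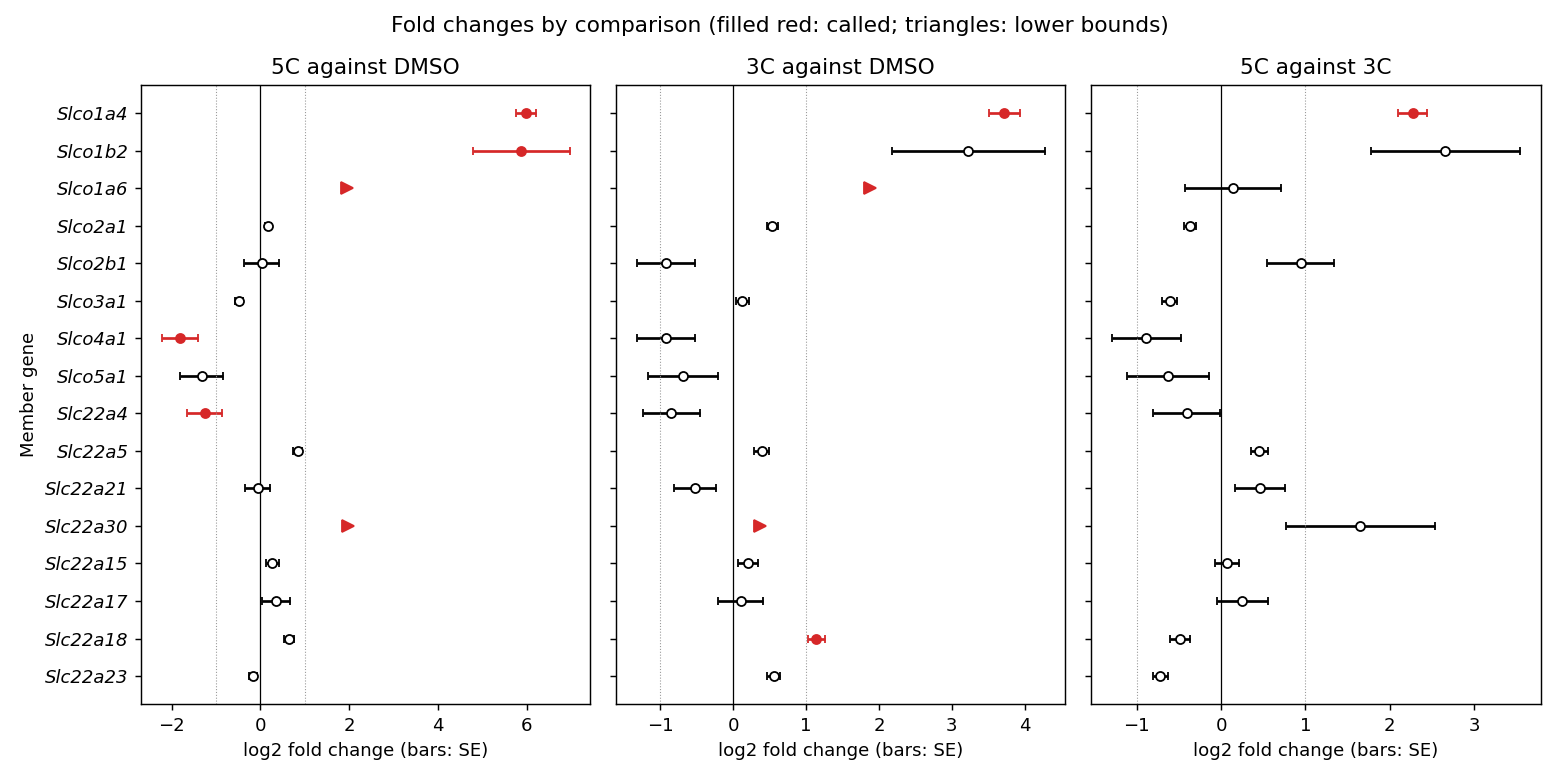
Log2 fold change of the 16 genes from edgeR in 3 panels, each cocktail against DMSO and then 5C against 3C, with SE bars; filled red symbols were called, triangles are lower bounds for genes at or under the floor in DMSO, and dotted lines mark the fold limit. Slco1a4 lies at 5.99, 3.72 and 2.27 and is called in all 3 panels, and the bar of Slco1b2 is the widest of the called genes in the first panel.

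Among the liver OATPs, Slco1a4 rose in both cocktails and rose further in 5C than in 3C. Slco1a4 (ENSMUSG00000030237, chr6:141751165-141802036, minus strand) encodes Oatp1a4, which carries bile acids, steroid conjugates and cardiac glycosides. Its level was 0.328 and 0.273 CPM in the DMSO libraries, 3.73 and 4.41 in 3C, and 18.9 and 19.1 in 5C. The groups did not overlap, and the replicates of each group lay close together. Group means in CPM were 0.300 ± 0.0385 for DMSO, 4.07 ± 0.483 for 3C and 19.0 ± 0.150 for 5C (SD, n = 2). Against DMSO, it was 63.6-fold higher in 5C (log2 fold change 5.99, SE 0.22, edgeR adjusted p = 3.77e-07) and 13.2-fold higher in 3C (3.72, SE 0.22, adjusted p = 6.07e-06). Between the cocktails, it was 4.83-fold higher in 5C (log2 fold change 2.27, SE 0.18, edgeR adjusted p = 0.000242). Calls against DMSO in 5C and of 5C against 3C held in all 16 alternatives, and the call in 3C in 15 of 16.

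Slco1b2 (ENSMUSG00000030236, chr6:141575179-141633546, plus strand) encodes Oatp1b2, a hepatocyte carrier of bile acids, bilirubin conjugates and statins. Its level was 0.551 and 0 CPM in the DMSO libraries, from 37 and 0 units, then 2.66 and 2.65 CPM in 3C, and 16.4 and 16.0 in 5C. The 3C and 5C replicates agreed closely, while the DMSO libraries did not, and no groups overlapped. It rose 59.2-fold in 5C against DMSO (log2 fold change 5.89, SE 1.09, edgeR adjusted p = 0.0198). The size of this fold turned on the DMSO libraries: without DMSO replicate 2 it was 30-fold (log2 fold change 4.91, adjusted p = 7.64e-06), and without DMSO replicate 1 the remaining library was at 0, which gave at least 89.1-fold against the floor of that library. The log2 fold change in 3C was 3.23 (SE 1.05, adjusted p = 0.106), and that between 5C and 3C was 2.66 (SE 0.88, adjusted p = 0.160), so neither passed.

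These tests of Slco1b2 turned on single libraries. Without DMSO replicate 1 the edgeR adjusted p of 5C against 3C was 0.000122, without DMSO replicate 2 it was 9.19e-05, and with the 3C and 5C libraries fitted alone it was 0.000126. The comparison of 3C with DMSO was called without DMSO replicate 1 (adjusted p = 2.21e-05) and without DMSO replicate 2 (log2 fold change 2.25, adjusted p = 0.000389). In the other direction, the call in 5C against DMSO was lost without any one of the 4 cocktail libraries, with adjusted p = 0.0891 and 0.0858 without 3C replicate 1 and 2, and 0.0886 and 0.0911 without 5C replicate 1 and 2. Over all alternatives its adjusted p ranged from 2.63e-06 to 0.0911 at a log2 fold change of at least 2.34.

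Slco1a6 (chr6:142031487-142154247), another OATP gene of the same chromosome 6 group, was low throughout. It had 12 and 9 units in DMSO, 34 and 55 in 3C, and 46 and 51 in 5C, with both DMSO libraries at or under the floor. The level was at least 3.89-fold higher in 5C than in DMSO (edgeR adjusted p = 0.0287) and at least 3.66-fold higher in 3C (adjusted p = 0.0422). The 3C and 5C libraries overlapped, with a log2 fold change of 0.14 (SE 0.57, adjusted p = 0.927). These calls were not firm. That in 5C was lost without DMSO replicate 1 or 2, 3C replicate 2, or 5C replicate 1 or 2 (adjusted p from 0.0501 to 0.101), and that in 3C was lost without any one of the 6 libraries (adjusted p from 0.0631 to 0.227).

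The 6 Slco1 genes among the members lie close together on chromosome 6, and they did not share a level. Slco1b2 and Slco1a4, which are neighbours in start order among the members, were the ones above 1 FPKM in 5C, with 4.43 ± 0.180 and 5.11 ± 0.166 (SD, n = 2). Slco1a1, Slco1a5 and Slco1c1 had at most 16, 8 and 9 units in any library.

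**Figure D3:**
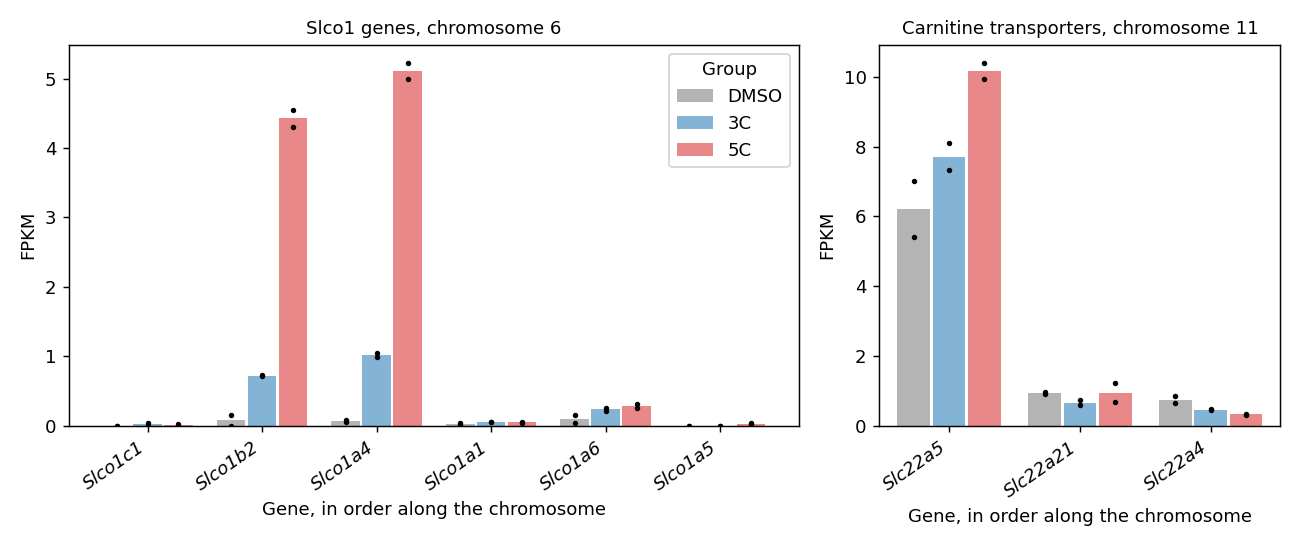
Mean FPKM (bars, starting at 0) with both libraries (points) for members of 2 gene groups, each in order along its chromosome: the Slco1 genes of chromosome 6 and the carnitine transporters of chromosome 11. In 5C, Slco1b2 and Slco1a4 carry most of the level in the first group, and Slc22a5 in the second.

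Of the other SLCO genes, which serve many tissues, Slco4a1 alone was called, and it fell in 5C. Slco2a1 encodes the prostaglandin transporter PGT. Its level was 123.6 and 127.9 CPM in DMSO, 184.7 and 188.6 in 3C, and 134.5 and 144.8 in 5C. The 3C libraries stood above the others, and no groups overlapped. It was 1.45-fold higher in 3C than in DMSO (log2 fold change 0.54, SE 0.07, edgeR adjusted p = 0.000611) and lower in 5C than in 3C (-0.37, SE 0.07, adjusted p = 0.0106), both within the fold limit. Against DMSO, the log2 fold change in 5C was 0.17 (adjusted p = 0.116).

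Slco3a1, whose product also carries prostaglandins, had 63.9 and 66.1 CPM in DMSO, 66.9 and 78.1 in 3C, and 45.4 and 46.4 in 5C. The 5C libraries were the lowest. It was lower in 5C than in DMSO (log2 fold change -0.48, SE 0.09, edgeR adjusted p = 0.00342) and than in 3C (-0.61, SE 0.09, adjusted p = 0.00304), within the fold limit, while that in 3C against DMSO was 0.13 (adjusted p = 0.380). Slco4a1, a carrier of thyroid hormones and prostaglandins, had 4.44 and 2.06 CPM in DMSO, 1.74 and 1.76 in 3C, and 0.753 and 1.07 in 5C. The groups were ordered DMSO, 3C, 5C without overlap, and the DMSO replicates lay far apart.

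Slco4a1 fell in 5C against DMSO (log2 fold change -1.81, SE 0.41, edgeR adjusted p = 0.0102). The call was lost without DMSO replicate 1 (log2 fold change -1.17, adjusted p = 0.0799) and without 5C replicate 1 (adjusted p = 0.0797). In 3C its log2 fold change was -0.92 (adjusted p = 0.139), and without DMSO replicate 2 it was called lower (-1.36, adjusted p = 0.0317). Between 5C and 3C it was -0.89 (adjusted p = 0.228).

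Slco2b1, which encodes a carrier of sulfated steroids, had 2.73 and 4.38 CPM in DMSO, 1.47 and 2.39 in 3C, and 2.55 and 4.61 in 5C. The replicates of each group differed by more than 1 CPM in DMSO and 5C, and the log2 fold changes of 0.03 in 5C, -0.92 in 3C and 0.95 between 5C and 3C did not pass (adjusted p = 0.969, 0.139 and 0.181). Slco5a1, an orphan member, had 1.88 and 1.12 CPM in DMSO, 0.800 and 1.10 in 3C, and 0.782 and 0.404 in 5C. Its log2 fold change in 5C against DMSO was -1.32 (SE 0.49, edgeR adjusted p = 0.0747), which did not pass. With at least 10 counts required in every library it was called lower (-1.32, adjusted p = 0.0455).

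The carnitine transporters lie together on chromosome 11. Slc22a5 (ENSMUSG00000018900, chr11:53753315-53782703, minus strand) encodes OCTN2, the high-affinity carnitine carrier. Its level was 20.4 and 18.6 CPM in DMSO, 25.3 and 27.01 in 3C, and 33.3 and 35.9 in 5C. The groups did not overlap and were ordered DMSO, 3C, 5C. All 3 differences passed on the adjusted p and none passed the fold limit: 1.80-fold in 5C against DMSO (log2 fold change 0.85, SE 0.10, edgeR adjusted p = 0.00027), 1.31-fold in 3C (0.39, SE 0.10, adjusted p = 0.0217) and 1.37-fold between 5C and 3C (0.45, SE 0.10, adjusted p = 0.0195). Slc22a5 shares 15.5% of its 50-base transcript words with other genes, mainly Slc22a21, so its counts are uncertain.

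Slc22a21, the OCTN3 gene, had 3.62 and 3.41 CPM in DMSO, 2.27 and 2.74 in 3C, and 2.58 and 4.06 in 5C, with 5C overlapping both other groups. No comparison passed (adjusted p = 0.909, 0.253 and 0.400). Slc22a21 shares 18.2% of its words with other genes, mainly Slc22a5, so its counts are uncertain as well. Slc22a4 encodes OCTN1, a carrier of the antioxidant ergothioneine. It had 1.55 and 2.20 CPM in DMSO, 1.21 and 0.924 in 3C, and 0.666 and 0.881 in 5C, without overlap. It fell in 5C (log2 fold change -1.26, SE 0.40, edgeR adjusted p = 0.0422), while that in 3C was -0.85 (adjusted p = 0.162). The call in 5C was kept in 6 of 16 alternatives and was lost without DMSO replicate 2, 3C replicate 1, 3C replicate 2, 5C replicate 1 or 5C replicate 2 (adjusted p = 0.192, 0.0643, 0.0614, 0.195 and 0.0846).

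Slc22a30 was the one organic anion transporter of the rodent group on chromosome 19 with a call. It was at 0 in both DMSO libraries and had 22 and 9 units in 3C and 60 and 38 in 5C. Both 5C libraries were above both 3C libraries. It was at least 3.93-fold higher in 5C than in DMSO (edgeR adjusted p = 0.00387) and at least 1.29-fold higher in 3C (adjusted p = 0.0146). In 3C, replicate 2 was under the floor at 9 units, so the bound in 3C rests mostly on replicate 1. That bound lies under the fold limit of a call, which was met by the fitted log2 fold change of 6.95 (SE 1.59) against DMSO libraries at 0. With limma on log2(FPKM + 1) neither call was kept. With limma on log2(FPKM + 0.1) and in a test of the fold limit itself, the call in 3C was lost. The call in 3C was lost without 3C replicate 1 (adjusted p = 0.0559). Slc22a30 shares 36.2% of its words with other genes, mainly its neighbour Slc22a28, so its counts are uncertain. Between the cocktails its log2 fold change was 1.65 (SE 0.88, adjusted p = 0.311).

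Of the 4 remaining SLC22 members, Slc22a18 was called, in 3C against DMSO. Slc22a18, a transporter-like gene of an imprinted region, had 20.8 and 25.3 CPM in DMSO, 53.7 and 50.3 in 3C, and 38.2 and 33.4 in 5C. The 3C libraries were the highest, and no groups overlapped. It rose 2.20-fold in 3C (log2 fold change 1.14, SE 0.12, edgeR adjusted p = 0.000138), and without DMSO replicate 1 the value was 0.99 (adjusted p = 0.000508), just under the fold limit. In 5C it was 1.57-fold higher than in DMSO (0.65, SE 0.12, adjusted p = 0.00304) and lower than in 3C (-0.49, SE 0.12, adjusted p = 0.0254).

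Slc22a23, an orphan member, had 92.2 and 83.9 CPM in DMSO, 142.4 and 122.5 in 3C, and 80.9 and 74.1 in 5C. The 3C libraries stood above the others. It was higher in 3C than in DMSO (log2 fold change 0.56, SE 0.09, edgeR adjusted p = 0.00148) and lower in 5C than in 3C (-0.72, SE 0.09, adjusted p = 0.00123), within the fold limit, and that in 5C against DMSO was -0.16 (adjusted p = 0.205). Slc22a15 had 11.03 to 15.2 CPM over the 6 libraries, and Slc22a17, the receptor gene for lipocalin-2, had 3.60 to 7.49. Neither passed in any comparison, with the smallest edgeR adjusted p at 0.193 for Slc22a15 and 0.452 for Slc22a17 with all 6 libraries. Without DMSO replicate 1, the adjusted p of Slc22a17 in 5C against DMSO was 0.0265, at a log2 fold change of 0.96 that is within the fold limit.

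Levels can be compared between genes per kilobase. In DMSO the highest members were Slco2a1 (16.1 FPKM), Slco3a1 (15.1), Slc22a18 (14.8) and Slc22a23 (13.8), and Slco3a1 and Slc22a18 overlapped in their libraries, as did Slc22a18 and Slc22a23. In 3C the order was Slc22a18 (31.5), Slco2a1 (23.5), Slc22a23 (19.9) and Slco3a1 (16.2), with no overlap between neighbours. In 5C it was Slc22a18 (22.2), Slco2a1 (17.7), Slc22a23 (12.3), Slco3a1 (11) and Slc22a5 (10.2). Slco1a4 and Slco1b2 stood at ranks 7 and 8 in 5C with 5.11 and 4.43 FPKM, beside 0.0669 and 0.0748 FPKM in DMSO, where their ranks were 16 and 15. Even in 5C these hepatocyte uptake carriers were below the prostaglandin transporter gene per kilobase.

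The sinusoidal partners, the efflux pumps and the regulators of these carriers were read from lists. Their calls can be set beside the rates of calls over all 19135 genes. Against DMSO, these rates were 7.3% up and 4.42% down with 5C, and 5.83% up and 3.62% down with 3C. Between the cocktails they were 2.16% up and 0.852% down. The same rates apply to the cell markers above. Whether any list departs from these rates was not tested. Of 10 tested uptake and exchange partners, 4 were called higher and 1 lower in 5C against DMSO, and 3 higher and 1 lower in 3C. Slc10a1, which encodes the bile acid uptake carrier NTCP, rose from 0.157 CPM in DMSO to 1.08 in 3C (log2 fold change 2.73, edgeR adjusted p = 0.00201) and 3.55 in 5C (4.50, adjusted p = 9.56e-05). The DMSO mean lay under the floor of 0.173 to 0.182 CPM, so the size of these folds is uncertain. Slc10a1 was also called higher in 5C than in 3C (log2 fold change 1.77, edgeR adjusted p = 0.0179), the one call of this list in that comparison. Slc51b, a subunit of the basolateral bile acid exporter, was at 0 in DMSO and was called higher in both cocktails, at 0.233 CPM in 3C and 0.947 in 5C. The 3C libraries of Slc51b lay far apart (SD 0.184 CPM) and near the floor. Slc17a3, an organic anion carrier gene, was called higher in both cocktails (log2 fold change 3.01 in 5C and 2.03 in 3C), and Slc47a1, the cation exporter MATE1, in 5C (1.48, adjusted p = 0.0435). Slc28a2, a nucleoside carrier gene, fell in both (log2 fold change -2.45 in 5C and -1.92 in 3C).

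Of 13 efflux pump genes, 5 were called higher and 1 lower in 5C against DMSO, and 4 higher in 3C. Abcb11, which encodes the bile salt export pump, rose in 5C against DMSO (log2 fold change 4.77, edgeR adjusted p = 0.000598) and against 3C (3.45, adjusted p = 0.00538), while its value in 3C did not pass (1.32, adjusted p = 0.117). The sterol pump genes Abcg5 and Abcg8 rose in 5C (log2 fold change 3.28 and 2.33) and in 3C (2.38 and 2.19). Abcc6 was called in both as well, and was the third by size in 3C (2.05). Abcc4, a basolateral pump gene, fell in 5C against DMSO (log2 fold change -1.51, adjusted p = 0.00393) and against 3C (-1.80, adjusted p = 0.00543).

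**Figure D4:**
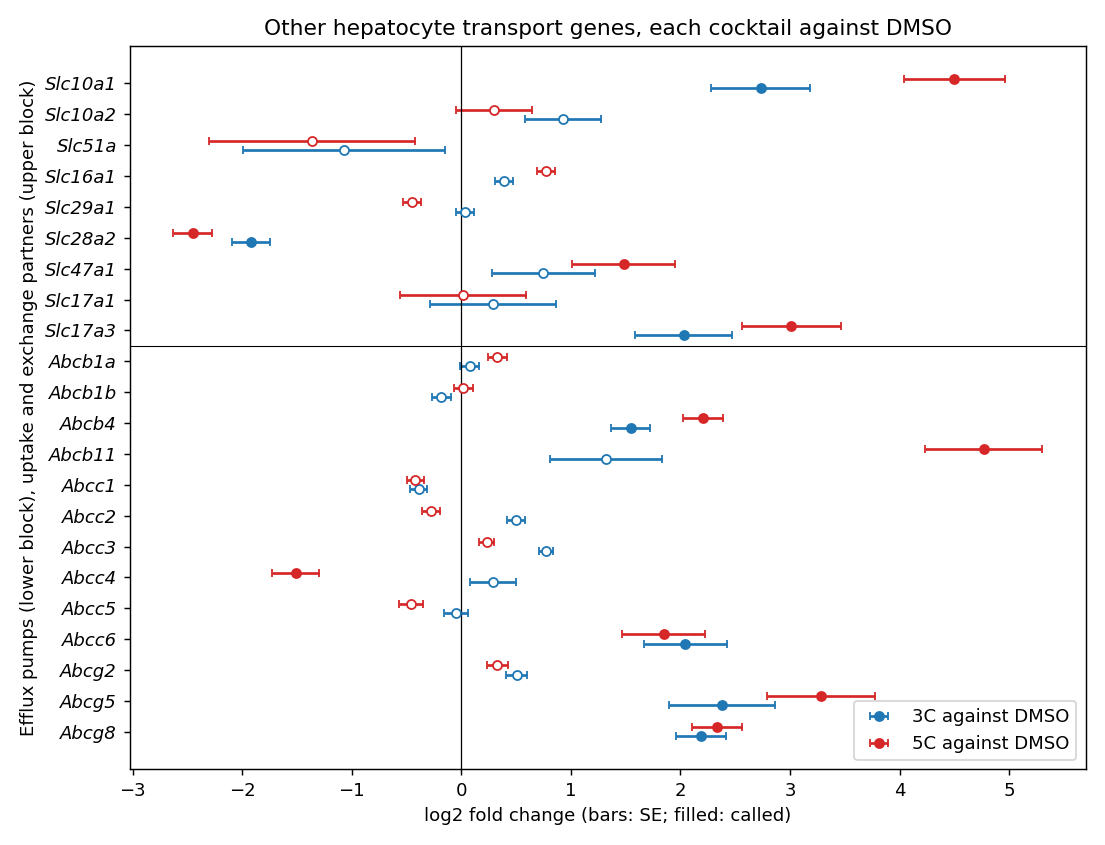
Log2 fold change with SE bars of uptake and exchange partners (upper block) and efflux pumps (lower block) in 3C (blue) and 5C (red) against DMSO, with filled symbols called; Slc51b, at 0 in DMSO, is left out. Slc10a1 and Abcb11 have the largest values in 5C (4.50 and 4.77), and Slc28a2 the lowest (-2.45). The DMSO mean of Slc10a1 lay under the floor.

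Of 13 transcription factor genes known to act on these carriers, each cocktail raised several against DMSO (5 called higher with 5C, 6 with 3C), and edgeR called none between the cocktails, where 6 passed on the adjusted p within the fold limit. In 5C the largest were Nr0b2, the SHP gene (log2 fold change 2.83), Nr1i3, the CAR gene (2.26), and Nr1i2, the PXR gene (1.91), and in 3C they were Nr0b2 (2.19), Ppara (2.04) and Nr1i2 (1.97). Pdzk1, which encodes a scaffold that anchors several of these carriers at the membrane, was called higher in all 3 comparisons (log2 fold change 4.18, 3.01 and 1.17). A list of 7 genes covered the shuttle and the synthesis of carnitine, the cargo of OCTN2. In each cocktail against DMSO, 1 of these 7 was called, while 5 passed on the adjusted p with no limit on the fold. Over all genes, 28.7% passed this way with 5C, 24.5% with 3C and 12.7% between the cocktails. The called gene was Bbox1, the last enzyme of carnitine synthesis, which rose in 5C (log2 fold change 2.41, edgeR adjusted p = 0.00191) and in 3C (2.32, adjusted p = 0.00279). In 5C against DMSO, the median log2 fold changes of these 4 groups of 10, 13, 13 and 7 genes were 0.54, 0.33, 0.91 and 0.47. The 22 members stood at 0.50, and at 0.22 with genes at the floor set to their bounds. With at least 10 counts required in every library, the members left stood at 0.10. No such bounds were set for the lists, so these medians describe the groups and support nothing. The hepatocyte markers, with a median log2 fold change of 3.57 in 5C and 2.65 in 3C, moved in the same direction as Slco1a4 and Slco1b2. Of 11 endothelial markers tested, 5 were called higher in 5C against DMSO, with Pecam1, Cdh5 and Emcn the highest (log2 fold change 5.36, 5.66 and 4.76). Another 3 were called lower (Stab1, Lyve1 and Vwf, at -1.68, -2.42 and -2.43), and the list median was 0.05. In the same comparison the medians of the cholangiocyte, mesothelial, stellate and fibroblast, and macrophage markers were 1.57, 1.13, 0.72 and -2.07. The part of all these markers in the results was not tested.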

How the data were processed

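RNA of dHeps in 3 groups of 2 libraries was sequenced as paired reads. The authors mapped reads to GRCm39 and deposited estimated counts (whole numbers, not normalized) and FPKM per gene. The submitters' notes name featureCounts, Subread and DESeq2. The annotation release and strand setting were not given in the sources used here. Low values showed an excess at 4 units (4816 entries, beside 3121 of 3 and 2303 of 5), so 4 units per fragment were assumed for the floor. Floors cover counting error only.

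Counts were tested with edgeR 4.0.16 in R 4.3.3 (quasi-likelihood F test, robust, TMM, filterByExpr), with 1 coefficient per group over all 6 libraries and 3 residual degrees of freedom. The SE was taken from the log2 fold change and the F statistic. CPM used library totals, and FPKM served for levels between genes. Positions, promoters and 50-base words shared between transcripts (uncertain from 10%) came from GRCm39 and its GENCODE annotation, which matched 40 of 40 members. Alternatives covered normalization, filters, DESeq2 1.42.0, limma 3.58.1 on FPKM, counts divided by 4, thresholds, a replicate block and leaving out libraries. Steps were tested on simulated data. Every tested member is named with values, except 1 that is not reported here, and of other lists the called genes with the largest and smallest log2 fold change. The members and lists were chosen with earlier results of these data known. Of 4 PDZ adaptor genes, 1 was in the table under the symbol searched. Figures were drawn with matplotlib 3.10.9.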

Additional observations from a re-analysis of the deposited data

How the results depend on the processing

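Of 956 values of 51 results for single members under 19 alternatives, 869 kept their direction and their side of the threshold, 50 lost a call, 27 gained one and 10 changed sign, all 10 among values that did not pass. RLE and upper quartile normalization and DESeq2 left the counts of members called at 7, 5 and 1 (5C against DMSO, 3C against DMSO, 5C against 3C). The count in 5C against DMSO became 3 in a test of the fold limit itself (glmTreat) and 3 with limma on log2(FPKM + 1). In 3C against DMSO it became 3 with at least 10 counts in every library, 3 with the 2 groups fitted alone, 8 with no limit on the fold, 2 with glmTreat, and 2 with limma on log2(FPKM + 1). In 5C against 3C it became 2 with the 2 groups fitted alone, with counts divided by 4 and with limma on log2(FPKM + 1) or log2(FPKM + 0.1), 7 with no limit on the fold and 4 on the unadjusted p. Leaving out each library gave 3 to 6, 3 to 6 and 1 to 2 calls.

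The median log2 fold change in 5C against DMSO moved to 0.84 with no filter on low counts, 0.10 with at least 10 counts in every library, 0.22 with counts divided by 4, 0.22 with limma on log2(FPKM + 1) but 0.35 on log2(FPKM + 0.1), and 0.32 without members that share at least 10% of their words. In 3C against DMSO it moved to 0.17 with at least 10 counts in every library, 0.30 with counts divided by 4, and 0.17 and 0.36 with the same limma fits. In 5C against 3C it moved to -0.15 with at least 10 counts in every library and -0.031 without members that share words. Leaving out each library gave medians of 0.21 to 0.70, 0.42 to 0.78 and -0.081 to 0.20. The lowest in 5C against DMSO came without DMSO replicate 2 (0.21) and 5C replicate 1 (0.29), and in 5C against 3C without 5C replicate 1 (-0.081), 3C replicate 1 (0.0000) and 5C replicate 2 (0.04). Which genes entered the median changed with the filter, and beyond that the cause was not tested.

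The sign changed for Slc22a15 in 5C against 3C with limma (-0.0155 and -0.0194 with pseudocounts of 1 and 0.1). When each library was left out, the log2 fold change ranged from -0.0698 to 0.96 for Slc22a17, -0.45 to 0.24 for Slc22a21 and -0.48 to 0.43 for Slco2b1 in 5C against DMSO, from -0.32 to 0.71 for Slc22a17 in 3C against DMSO, and from -0.0567 to 0.22 for Slc22a15 and -0.15 to 0.50 for Slco1a6 in 5C against 3C. Libraries with the same replicate number showed no shared deviation across genes (Pearson's r 0.000683, -0.0306 and 0.0161). This cannot tell whether they came from the same animal or culture. With the replicate block, 6, 4 and 1 members were called, without Slc22a4 in 5C (adjusted p = 0.0592) and Slco1a6 in 3C (adjusted p = 0.0694), and the medians were 0.54, 0.46 and 0.11. Over all genes, calls went from 2242, 1809 and 576 to 5485, 4689 and 2423 with no limit on the fold, to 1160, 771 and 38 with glmTreat, and to 1229, 961 and 260 with limma on log2(FPKM + 1). In 5C against 3C they were 1021 on the unadjusted p and 381 without 5C replicate 2. With 2 libraries a group and levels near 12 units, small differences in low members were not detectable.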
